A study of Mus musculus with 3 samples.

Results

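The 9 genes *Acat2*, *Hmgcs1*, *Mvk*, *Pmvk*, *Mvd*, *Idi1*, *Fdps*, *Fdft1*, and *Sqle* encode enzymes that carry acetyl-CoA through mevalonate and the early isoprenoids to squalene epoxide. They were chosen by name, for their place in the pathway, from 21938 protein-coding genes. For each, the peaks of Ad4BP/SF-1 in the gene and in the 100 kb on either side of it were collected from chromatin immunoprecipitation sequencing (ChIP-seq) of mouse Leydig cells, the androgen-producing cells of the testis. Ad4BP/SF-1, the product of *Nr5a1*, is a nuclear receptor that binds DNA as a monomer and drives steroidogenic genes. The cells came from pooled testes of male ICR mice aged 9 weeks, were separated on a density gradient, and were treated with vehicle or with cAMP, the second messenger through which luteinizing hormone acts on Leydig cells. The sources used here give neither the dose nor the duration of the cAMP treatment. Both groups were otherwise alike in strain, sex, age, and culture. There was 1 library for each treatment and hence no replicate error for a comparison of vehicle with cAMP, and no test was made. An input DNA sample was not analysed here, and a peak list cannot show whether markers of Leydig cells were expressed.

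The mevalonate pathway starts in the cytosol, where acetyl-CoA units are joined and reduced to mevalonate, which is then phosphorylated and decarboxylated to isopentenyl pyrophosphate, the building block of all isoprenoids. Farnesyl pyrophosphate stands at its branch point, from which carbon goes to squalene and cholesterol or to prenylated proteins, dolichol, and ubiquinone. In the Leydig cell, cholesterol is the substrate of androgens. The genes of this pathway are classical targets of the sterol-sensing factor SREBP-2.

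Peaks within 10 kb were found for 3 of the 9 genes (plot of peaks around each gene), beside 23.2% of all protein-coding genes with a peak in either list. *Fdft1* had peaks in its introns in both lists, *Fdps* had a peak 6 kb upstream of its 5′ end in both lists, and *Mvd* had a peak inside the gene in the cAMP list only. *Mvk*, *Pmvk*, and *Sqle* had peaks only farther away, between 26.8 and 78.9 kb at the nearest. *Acat2*, *Hmgcs1*, and *Idi1* had no peak within 100 kb in either list. The peak of *Fdps* and those of *Fdft1* each held the consensus for Ad4BP/SF-1, and the peak in *Mvd* did not.

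**Figure D1:**
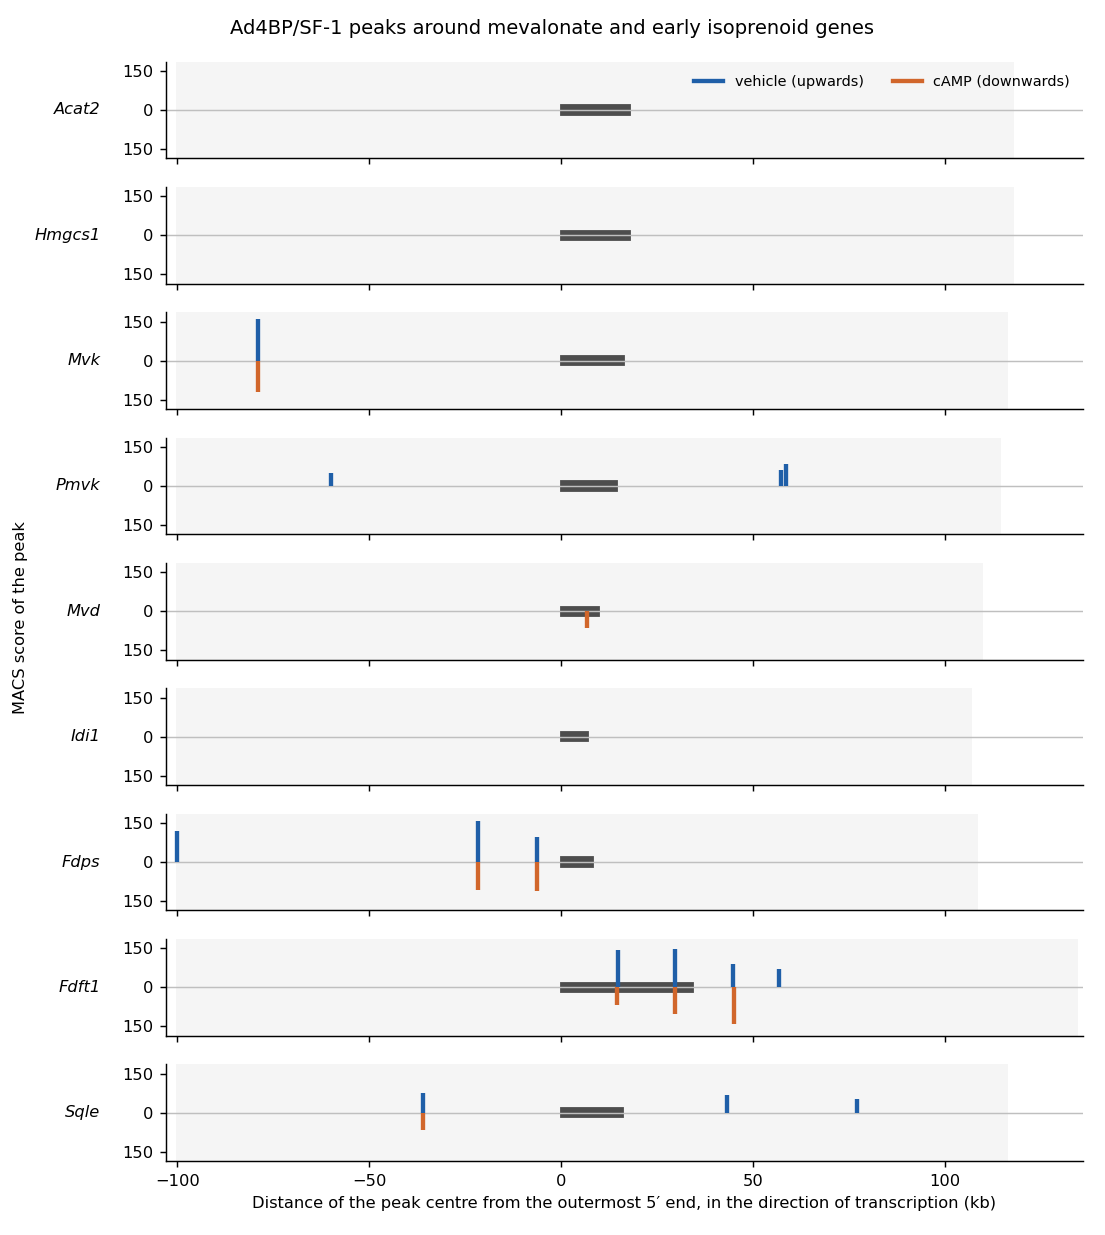
MACS scores of the peaks within 100 kb of each gene (vertical axis, upwards for vehicle and downwards for cAMP) against the distance in kb of the peak centre from the outermost 5′ end in the direction of transcription. The dark box is the gene and the pale band is the window searched. *Acat2*, *Hmgcs1*, and *Idi1* are empty, and the bars that stand at one position in both directions, such as those of *Mvk*, are peaks shared by the lists.

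The stretches below carry the contrast between genes with and without a consensus in their peak. They were read from mm10, 5′ to 3′, from the chromosome strand named for each. Capitals mark the 8-base consensus, which is any of TCAAGGTC, TCAAGGCC, CCAAGGTC, and CCAAGGCC on either strand, so that a word on the opposite strand appears in its reverse complement. In the *Mvd* stretch, capitals mark the 7-base core only, that is the consensus without its first base. The *Sqle* upstream stretch, around the middle of its peak, holds no word and is shown for comparison. The stretches lie at chr3:89108276-89108423 (minus strand), chr3:89123453-89123560 (minus), chr14:63149770-63149920 (minus), chr14:63164769-63164881 (minus), chr14:63134546-63134653 (minus), chr8:122436800-122436906 (minus), chr3:89513163-89513270 (minus), chr15:59358105-59358212 (minus), chr15:59279004-59279123 (plus), and chr5:114365318-114365400 (plus), in the order printed.
Fdps upstream peak: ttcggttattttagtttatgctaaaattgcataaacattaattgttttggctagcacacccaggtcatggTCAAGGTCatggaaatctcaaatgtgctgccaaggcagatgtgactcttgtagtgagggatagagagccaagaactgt
Fdps outer upstream peak: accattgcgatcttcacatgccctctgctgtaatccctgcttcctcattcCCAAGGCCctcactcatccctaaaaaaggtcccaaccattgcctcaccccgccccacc
Fdft1 intron 9 peak: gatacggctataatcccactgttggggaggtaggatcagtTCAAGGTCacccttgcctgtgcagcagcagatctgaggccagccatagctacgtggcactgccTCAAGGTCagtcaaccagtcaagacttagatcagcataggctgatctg
Fdft1 intron 3 peak: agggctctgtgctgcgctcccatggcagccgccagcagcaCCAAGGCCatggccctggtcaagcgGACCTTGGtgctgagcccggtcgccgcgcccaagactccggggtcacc
Ctsb peak beyond Fdft1: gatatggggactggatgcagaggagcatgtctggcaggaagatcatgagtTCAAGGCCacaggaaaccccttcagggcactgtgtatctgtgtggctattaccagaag
Mvd intron peak: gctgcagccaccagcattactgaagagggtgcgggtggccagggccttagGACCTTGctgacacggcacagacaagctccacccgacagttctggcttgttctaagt
Pmvk downstream peak: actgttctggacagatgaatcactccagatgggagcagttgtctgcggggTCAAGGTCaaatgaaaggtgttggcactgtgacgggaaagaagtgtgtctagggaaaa
Sqle downstream peak: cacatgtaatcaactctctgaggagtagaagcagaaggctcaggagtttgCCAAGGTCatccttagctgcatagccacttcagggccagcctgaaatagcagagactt
Sqle upstream peak: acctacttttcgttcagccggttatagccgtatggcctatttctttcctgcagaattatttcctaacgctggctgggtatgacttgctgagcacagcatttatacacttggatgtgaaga
Mvk peak at Myo1h: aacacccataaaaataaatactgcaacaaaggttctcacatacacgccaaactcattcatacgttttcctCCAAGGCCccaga

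The vehicle list held 5721 peaks and the cAMP list 4025. The score of a peak is the one MACS gave it, its p-value on the negative log10 scale multiplied by 10, as the authors deposited it. No peak of either list scored below 50, which is stricter than the p threshold given in the methods, and regions of lower score are not in the lists. Read numbers are not part of the lists, and depth is therefore unknown. A score rises with depth, and scores of the lists were therefore compared only by the share of peaks in the same list that scored lower. Distances are the gap between the edge of the GENCODE gene and the nearer edge of the peak. Genes between a peak and a member, and nearest start sites, were sought among protein-coding genes only. A gene without a peak had none called at that depth and minimum score, which does not show that Ad4BP/SF-1 was absent from it. Since cholesterol synthesis was the study's interest, the question here is which of these enzymes had Ad4BP/SF-1 at or near their genes.

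*Acat2* (chr17:12942890-12960747, minus strand) encodes the cytosolic acetyl-CoA acetyltransferase that makes acetoacetyl-CoA. Its nearest vehicle peak was 231 kb away and scored 57.9, above 23.3% of the vehicle list. The nearest cAMP peak was 591 kb away and scored 63.3, above 42.5% of the cAMP list. Of all protein-coding genes, 67.2% had a nearer vehicle peak and 80.3% a nearer cAMP peak. *Acat2* is thus among the members farthest from a peak in both lists.

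*Hmgcs1* (chr13:119690379-119708260, plus strand) encodes cytosolic 3-hydroxy-3-methylglutaryl-CoA synthase, which adds the next acetyl unit. The nearest vehicle peak was 112 kb away, just beyond the window, and scored 69.2, above 45.0% of the list. The nearest cAMP peak was 2265 kb away with a score of 51.1, and 95.4% of genes had a nearer one. Its window is the only one with unknown bases in the genome sequence, 5127 of them, in which no peak can be called.

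*Mvk* (chr5:114444269-114460591, plus strand) encodes mevalonate kinase, which puts the first phosphate on mevalonate. Its window held 1 peak in each list, and these overlapped. The vehicle peak (chr5:114365025-114365390) scored 158, above 90.2% of the list, and the cAMP peak (chr5:114364962-114365400) scored 120, above 85.1%. Both lay 78.9 kb upstream of *Mvk*, where *Myo1h* and *Kctd10* overlap. The nearest start site was that of *Myo1h*, an unconventional myosin gene, at 1.79 and 1.77 kb from the peak centre. The genes *Kctd10*, *Mmab*, and *Ube3b*, lay between the peak and *Mvk*. *Mmab* acts in cobalamin metabolism and sits head to head with *Mvk*. A CCAAGGCC in the cAMP peak, the last word printed above, runs 5 bp past the end of the vehicle peak, so only the cAMP peak was counted as holding a consensus. The only peak in the window was thus not at *Mvk* itself, and 45.2% of all genes had a vehicle peak nearer than this.

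*Pmvk* encodes phosphomevalonate kinase, which adds the next phosphate. On the plus strand at chr3:89454541-89469013, it had 3 vehicle peaks and no cAMP peak within 100 kb. The upstream peak (chr3:89394491-89394909) scored 50.1, above 0.472% of the list, and its centre lay 76 bp from a start site of *Zbtb7b*, which encodes a zinc finger transcription factor. The 6 genes *Cks1b*, *Flad1*, *Lenep*, *Pbxip1*, *Pygo2*, and *Shc1* lay between it and *Pmvk*, and it held no consensus. The other vehicle peaks lay downstream at 42.7 and 43.9 kb, with no protein-coding gene between them and *Pmvk*. The nearer (chr3:89511717-89512165) scored 61.2 and held CCAAGGCC and TCAAGGTC, 164 bp apart. The farther (chr3:89512934-89513545) scored 84.6, above 63.5% of the list, and held the TCAAGGTC printed above. Both were nearest to a start site of *Kcnn3*, a calcium-activated potassium channel gene, at 8.22 and 6.93 kb. None of the 3 overlapped a cAMP peak. The nearest cAMP peak to *Pmvk* was 120 kb downstream, outside the window, and scored 138, above 89.4% of the cAMP list. It overlapped a vehicle peak of score 70.9 that also lay outside the window.

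*Mvd* encodes mevalonate diphosphate decarboxylase, which makes isopentenyl pyrophosphate. On the minus strand at chr8:122433601-122443422, it was the only member with a close peak in 1 list alone. The cAMP peak (chr8:122436432-122437086) scored 65.0, above 45.0% of the cAMP list, and was the lowest-scoring of the 8 cAMP peaks near members. Its centre lay in intron 7, and it covered all of exon 8 and reached into exon 7. The centre was 6.66 kb from the 5′ end of *Mvd* and 3.83 kb from a start site of the neighbouring *Cyba*, which encodes a subunit of the NADPH oxidase. The annotation also places the long read-through gene *Gm20388* over this region. The peak held the 7-base core printed above but no 8-base consensus. No vehicle peak lay within 122 kb of it. The nearest vehicle peak to *Mvd* scored 57.4 at 119 kb, and a further vehicle peak at 120 kb scored 229.

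*Idi1* (chr13:8885501-8892451, plus strand) encodes isopentenyl pyrophosphate isomerase, which makes dimethylallyl pyrophosphate. Its nearest vehicle peak was 3237 kb away and scored 58.4, and 99.0% of all genes had a nearer vehicle peak. The nearest cAMP peak was 192 kb away and scored 69.0, and 56.4% of genes had a nearer one. *Idi1* was thus the member farthest from a vehicle peak. Its neighbour *Idi2*, a paralog of the same enzyme, had its nearest peaks at 3168 and 260 kb, and these were the same peaks.

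*Fdps* encodes farnesyl pyrophosphate synthase, the enzyme of the branch point. It lies on the minus strand at chr3:89093588-89101959. A peak upstream of it was present in both lists, as chr3:89108029-89108578 with a score of 97.3 in vehicle (above 72.0% of the list) and as chr3:89108151-89108512 with a score of 111 in cAMP (above 82.0%). The gap to *Fdps* was 6069 and 6191 bp, and the centres lay 6.34 and 6.37 kb from its outermost 5′ end. No protein-coding gene lay between, and no other one had a nearer start site. The peak held a single TCAAGGTC. In place among the peaks of its list it stood 10.1 percentage points higher in cAMP than in vehicle. With only the 4025 top-scoring vehicle peaks, so that the lists were equally long, the difference was 21.9 points.

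The outer upstream peak of *Fdps* had the highest score of all member peaks in vehicle, 159 (chr3:89123045-89124022, above 90.3% of the list). In cAMP it scored 106 (chr3:89123348-89124058, above 79.7%). It lay 21.1 and 21.4 kb from *Fdps* with no protein-coding gene between. The nearest start site, however, was that of *Pklr*, which encodes liver and red cell pyruvate kinase, at 12.6 and 12.4 kb. It held CCAAGGCC, printed above, and a further 7-base core. The last vehicle peak (score 121) reached the window by its edge at 99919 bp. It held TCAAGGCC beyond the edge of the window. The cAMP peak that overlapped it (score 102) fell outside the window at 100077 bp.

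*Fdft1* encodes squalene synthase, which joins farnesyl pyrophosphate molecules in the step that commits carbon to sterols. It lies on the minus strand at chr14:63145150-63179578 and is the longest member, at 34.4 kb. It had 4 vehicle and 3 cAMP peaks within 100 kb, more than any other member (map of peaks at *Fdps* and *Fdft1*). In intron 9, the vehicle peak (chr14:63149478-63150185) scored 148, above 88.7% of the list, and the cAMP peak (chr14:63149564-63150155) scored 102, above 77.9%. Both held TCAAGGTC 2 times on the same strand, 63 bp apart. The nearest start site was that of *Ctsb*, the cathepsin B gene on the other side of the 3′ end, at 14.3 kb.

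In intron 3 of *Fdft1*, the vehicle peak (chr14:63164484-63165184) scored 145, above 88.1% of the list, and also covered all of exon 4. The cAMP peak (chr14:63164670-63165127) scored 66.8, above 48.1%. Both held CCAAGGTC and CCAAGGCC on opposite strands, 25 bp apart. The centres lay 14.7 kb from the outermost 5′ end of *Fdft1*, but 202 and 138 bp from the start of a retained-intron transcript of the gene. The printed stretch had a GC content of 70.8%. Its place within the cAMP list was 40.0 percentage points below that within the vehicle list, and 35.0 points below it at equal list lengths. With 1 library for each treatment this is a difference between lists, with no error to set it against. Of all 2167 shared peaks, 11.8% had a lower shift in the full lists.

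On the 3′ side of *Fdft1*, a peak within *Ctsb* lay just beyond 10 kb, at a gap of 10205 bp in vehicle and 10163 bp in cAMP. It scored 87.9 in vehicle (chr14:63134398-63134944, above 66.3%) and 140 in cAMP (chr14:63134241-63134986, above 89.7%), the highest cAMP score near any member. The centres were 847 and 905 bp from a start site of *Ctsb*, and the peak held TCAAGGCC. Its place within the list was 23.4 percentage points higher in cAMP, and 37.6 points higher at equal list lengths. Over the opposite end of *Ctsb*, a further vehicle peak (chr14:63122496-63123084) scored 69.3, held CCAAGGCC, and lay 276 bp from a *Ctsb* start site. It had no cAMP peak over it.

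**Figure D2:**
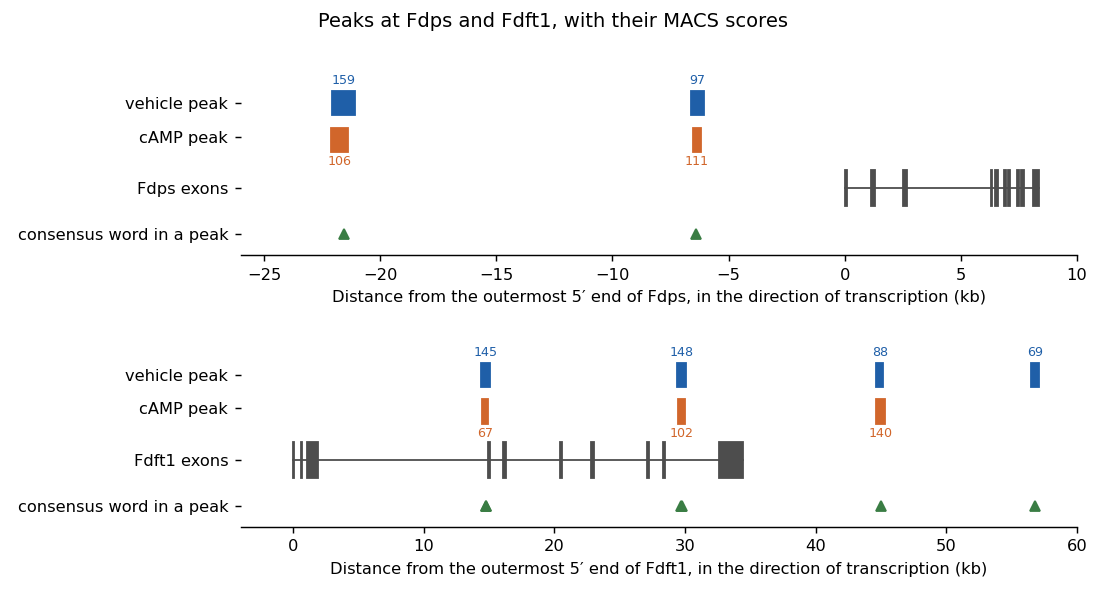
Peaks at *Fdps* (top) and *Fdft1* (bottom) against the distance in kb from the outermost 5′ end of the gene in the direction of transcription, with exons as dark boxes, MACS scores beside the vehicle (blue) and cAMP (orange) peaks, and triangles for consensus words in a peak. The *Fdps* peaks lie upstream of the gene and those of *Fdft1* lie in introns 3 and 9 and beyond the 3′ end.

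*Sqle* encodes squalene epoxidase, which oxidizes squalene in the first oxygen-requiring step of sterol synthesis. It lies on the plus strand at chr15:59315077-59331192. An upstream peak was present in both lists, with a score of 76.0 in vehicle (chr15:59278879-59279331, above 54.4%) and 66.7 in cAMP (chr15:59278791-59279249, above 47.8%). It lay 35.7 and 35.8 kb from *Sqle* inside the non-coding gene *Gm36617*, with no protein-coding gene between and none with a nearer start site. It held neither the consensus nor the core. The other vehicle peaks lay downstream and had no cAMP peak over them. The nearer (chr15:59358014-59358579), at 26.8 kb in *Washc5*, scored 66.3 and held CCAAGGTC and TCAAGGCC, 369 bp apart. The farther (chr15:59391899-59392342), at 60.7 kb in *Nsmce2*, scored 52.0, above 6.68% of the list, and held CCAAGGTC. So in *Sqle* the peak shared by the lists lacked a consensus, and the vehicle-only peaks held one.

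Counted over the 9 genes, a peak in the gene body was found for 1 in vehicle (*Fdft1*) and for 2 in cAMP (*Mvd* and *Fdft1*). Among all 21938 protein-coding genes the shares were 12.6% and 9.16%, with 6.42% in both lists and 15.4% in either. With 10 kb on either side, 2 members had a vehicle peak (22.2%, beside 19.3% of all genes) and 3 a cAMP peak (33.3%, beside 14.0%). The same 2 genes, *Fdps* and *Fdft1*, had one in both lists, beside 10.1% of all genes, and 3 had one in either, beside 23.2%. With 100 kb on either side, 5 members had a peak in each list (55.6%), beside 49.4% of all genes in vehicle and 41.3% in cAMP. For both lists the number was 4, beside 34.1%, and for either list it was 6, beside 56.7%. The vehicle shares lay near the background at every window. Of the cAMP counts, 1 gene more or fewer among 9 moves the share by 11.1 percentage points. At a minimum score of 75, the peak in *Mvd* was lost, and 2 members had a cAMP peak within 10 kb, beside 6.72% of all genes.

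Peaks over promoters, taken as 250 bases before to 50 after any annotated start site, were found in 2.3% of all genes in vehicle and 1.17% in cAMP. *Fdft1* was the only member with one, in each list, and it was at the retained-intron transcript. For *Acat2*, *Hmgcs1*, *Mvk*, *Pmvk*, *Mvd*, *Idi1*, *Fdps*, and *Sqle* no peak touched this stretch. RefSeq promoters on GRCm38.p6 were at hand for 6 members, namely all but *Fdps*, *Fdft1*, and *Sqle*. Of their 7 promoters 0 held the consensus, beside 5.73% of all 32851 promoters, a share at which 7 promoters are too few to show a difference.

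The gaps to the nearest peak spanned a wide range (plot of the gap to the nearest peak). The median gap was 78.9 kb over the 9 members in each list. Over all protein-coding genes it was 101 kb in vehicle and 146 kb in cAMP. In vehicle the order from nearest to farthest was *Fdft1*, *Fdps*, *Sqle*, *Pmvk*, *Mvk*, *Hmgcs1*, *Mvd*, *Acat2*, and *Idi1*. In cAMP, *Mvd* moved beside *Fdft1* at the front and *Hmgcs1* moved to the end. A mean of 1.56 vehicle peaks and 0.889 cAMP peaks lay within 100 kb of a member, beside 1.06 and 0.688 for all genes. The 4 genes *Pmvk*, *Fdps*, *Fdft1*, and *Sqle* had 3 or more vehicle peaks, as did 14.0% of all genes. In cAMP only *Fdft1* had 3 or more, as did 6.89% of all genes.

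**Figure D3:**
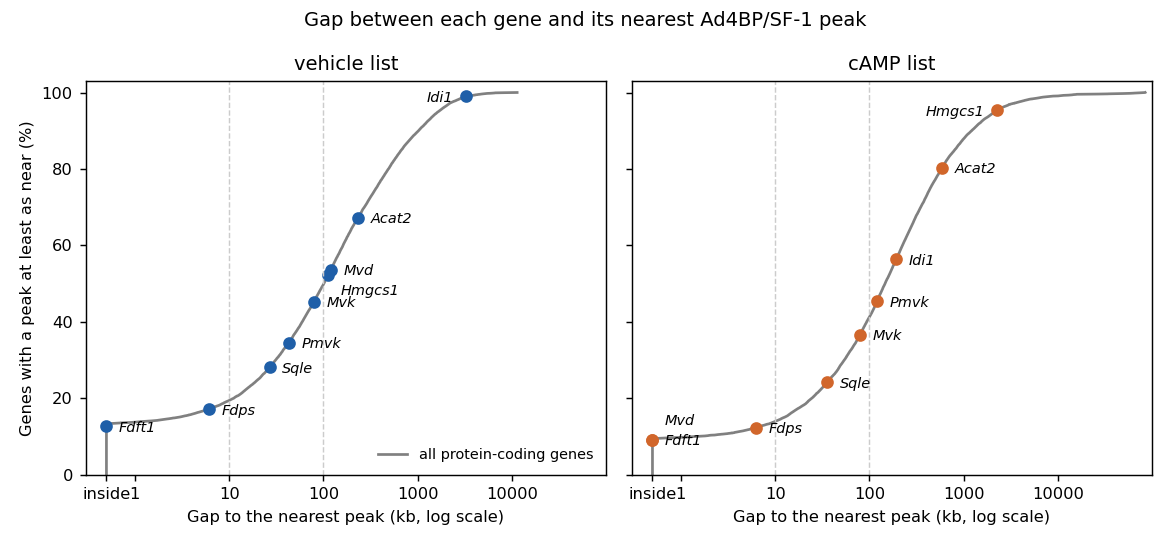
Share of protein-coding genes (percent) with a peak at least as near, against the gap to the nearest peak in kb on a log scale, for the vehicle list (left) and the cAMP list (right). The line is all protein-coding genes, the points are the 9 members, points at "inside" have a peak in the gene body, and the dashed lines stand at 10 and 100 kb. The members are spread along most of the curve, from *Fdft1* to *Idi1* in vehicle and from *Fdft1* and *Mvd* to *Hmgcs1* in cAMP.

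Among the 14 vehicle peaks within 100 kb, the scores ran from 50.1 to 159 with a median of 86.2, and the median peak scored above 64.9% of its list. Among the 8 cAMP peaks they ran from 65.0 to 140 with a median of 104, above 78.8% of the list. For 3 of the 14 and 3 of the 8, no other protein-coding gene had a nearer start site than the member. These were the *Fdps* peak 6 kb upstream, the *Fdft1* intron 3 peak, and the *Sqle* upstream peak, in each list. All other peaks were nearer to a start site of a neighbour, such as *Myo1h*, *Zbtb7b*, *Kcnn3*, *Cyba*, *Pklr*, *Ctsb*, *Washc5*, or *Nsmce2*. The same count was not made for peaks near all genes, so it has no background share beside it.

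Of the vehicle peaks, 8 of 14 (57.1%, 95% exact Clopper-Pearson interval 28.9% to 82.3%) overlapped a cAMP peak by at least 1 bp, beside 37.9% of all vehicle peaks. Of the cAMP peaks, 7 of 8 (87.5%, 47.3% to 99.7%) overlapped a vehicle peak, beside 53.8% of all. The exception was the peak in *Mvd*. These intervals cover counting error only, and peaks near a single gene are not independent. The 6 vehicle peaks without a counterpart were the 3 of *Pmvk*, the farther *Ctsb* peak, and the downstream peaks of *Sqle*. Of the 8 regions shared by the lists, 2 stood higher within cAMP than within vehicle (*Fdps* upstream and *Ctsb*), beside 44.5% of all shared peaks (plot of shared peaks). The shifts of the others were small for the *Fdps* peak at the edge of the window (-3.98 points), *Mvk* (-5.09), and *Sqle* (-6.65). They were larger for the outer *Fdps* peak (-10.7), *Fdft1* intron 9 (-10.8), and *Fdft1* intron 3 (-40.0). Over all shared peaks the median was -2.01 points, with a 10th percentile of -43.1 and a 90th of 34.7. Every member shift lay between these percentiles. These places depend on list length. At equal list lengths, 4 of the 8 stood higher within cAMP, beside 59.4% of all shared peaks, and the median over all was 5.37 points. The *Fdps* peak at the edge of the window (3.73 points) and the *Sqle* peak (12.5) then turned to higher in cAMP, and the *Mvk* peak was at -0.969.

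**Figure D4:**
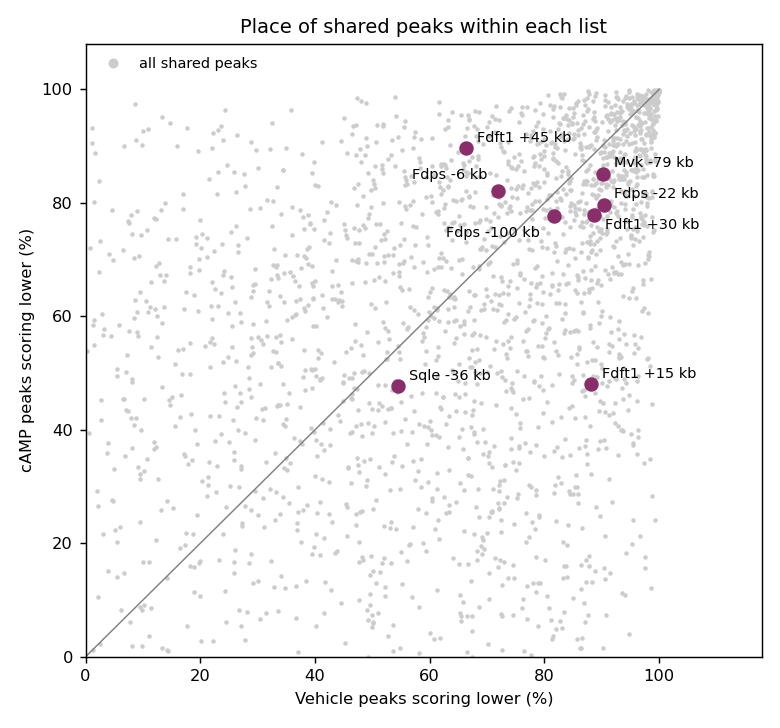
Share of cAMP peaks scoring lower (vertical, percent) against the share of vehicle peaks scoring lower (horizontal, percent) for peaks found in both lists. Grey points are all 2167 shared peaks, the 8 large points are those near members, each with its gene and the kb of its centre from the outermost 5′ end, and the line marks equal place in both lists. The *Fdft1* point within *Ctsb* and the nearer *Fdps* point lie above the line, and *Fdft1* intron 3 lies farthest below it.

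The consensus was present in 11 of the 14 vehicle peaks (78.6%, 49.2% to 95.3%), beside 80.4% of all vehicle peaks. It was present in 6 of the 8 cAMP peaks (75%, 34.9% to 96.8%), beside 77.1% of all cAMP peaks. The member peaks were thus not set apart from the lists by their consensus. Lacking it were the *Mvk* peak in vehicle, the upstream peak of *Pmvk*, the peak in *Mvd*, and the upstream peak of *Sqle*. More than 1 word was found in 4 vehicle peaks (28.6%, beside 20.8% of all) and in 2 cAMP peaks (25%, beside 19.4%). These were both *Fdft1* intron peaks in each list, the nearer *Pmvk* downstream peak, and the *Sqle* peak in *Washc5*.

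Words outside peaks were far more numerous (plot of consensus words). The windows held from 28 words (*Idi1*) to 82 (*Mvk*), and from 0 to 6 of these were in a peak of either list. *Fdft1* had 6 of 81 in a peak, *Pmvk* 3 of 70, *Sqle* 3 of 52, *Fdps* 2 of 57, and *Mvk* 1 of 82. *Acat2* had 64 words, *Hmgcs1* 46, and *Mvd* 76, with none in a peak. A gene without a peak was thus not a gene without consensus words.

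**Figure D5:**
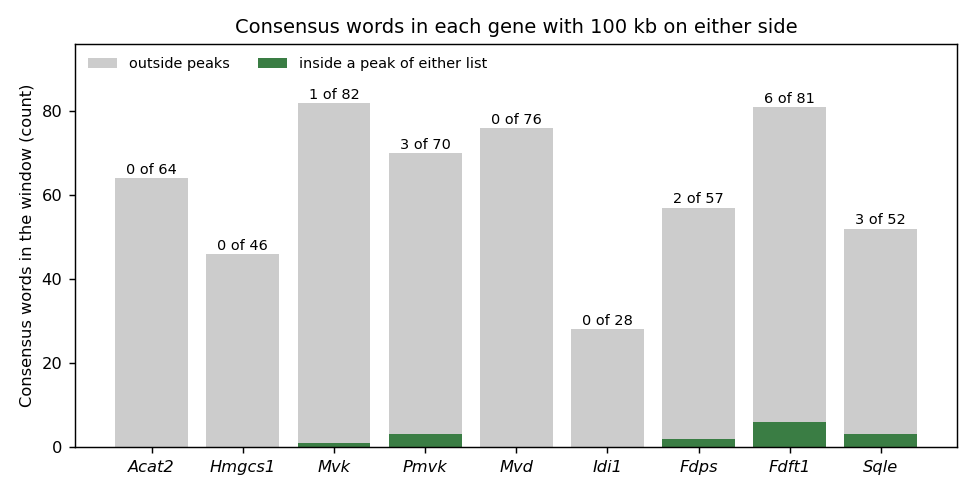
Number of consensus words (vertical axis, count) in each gene with 100 kb on either side, with words inside a peak of either list in green and the rest in grey. The label over each bar gives both numbers, from 0 of 28 for *Idi1* to 6 of 81 for *Fdft1*.

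The genes were then set side by side as those with a close peak (*Mvd*, *Fdps*, *Fdft1*), with a peak only farther off (*Mvk*, *Pmvk*, *Sqle*), and with none within 100 kb (*Acat2*, *Hmgcs1*, *Idi1*). These groups were formed from the peaks and hold 3 genes each, so the values are a description. Gene length ran from 8.37 to 34.4 kb in the genes with a close peak, from 14.5 to 16.3 kb in the middle group, and from 6.95 to 17.9 kb in the genes without. Consensus words per 100 kb ran from 27.4 to 36.2, from 24.1 to 37.9, and from 13.5 to 29.4. The GC content of the window was 45.6% to 52.5%, 44.1% to 51.6%, and 42.0% to 45.4%. The highest GC content among genes without a peak (*Acat2*, 45.4%) lay just below the lowest among those with a close peak (*Fdps*, 45.6%). *Sqle*, in the middle group, had 44.1%, and GC content was not measured around all other genes. Repeats took 20.3% to 34.7%, 23.4% to 26.1%, and 28.7% to 41.0% of the window, and reads with several positions had been left out before the peaks were called. The part of GC content and repeats in the presence of peaks was not tested. The number of other protein-coding genes in the window overlapped between the groups (5 to 10, 2 to 10, and 4 to 9).

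The primers that the study used for ChIP followed by PCR were placed on the genome to see how they sit on the peaks. The *Fdps* amplicon (chr3:89108233-89108369) lay wholly inside the upstream peak of both lists and spanned its TCAAGGTC. The *Fdft1* amplicon (chr14:63149801-63149908) lay wholly inside the intron 9 peak of both lists and spanned both words. The *Mvk* amplicon (chr5:114462498-114462577) lay 1906 bp past the 3′ end of the gene and held 1 consensus word. The nearest peak to it was 97.1 kb away in each list. The study's methods name Y-1 cells, from a mouse adrenocortical tumor, or Leydig cells for this ChIP. Only the Leydig lists were searched here, and they hold no region scoring below 50.

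Short words of other factors were counted on both strands of the peaks, as a description only. The sterol response word TCACNCCAC was in 1 of the 14 vehicle and 1 of the 8 cAMP peaks, beside 2.01% and 2.29% of all peaks, and in both cases this was the outer upstream peak of *Fdps*. The full CRE, TGACGTCA, was in none, beside 0.699% and 0.770%. The CCAAT word of NF-Y was in 6 of 14 and 5 of 8, beside 46.7% and 45.1%. The AP-1 word TGANTCA was in 4 of 14 and 2 of 8, beside 21.6% and 23.2%. The GATA words AGATAA and TGATAA were in 3 of 14 and 2 of 8, beside 39.5% and 36.1%.

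Genes next to the pathway gave the following counts. Of 12 genes that use isoprenoids outside sterol synthesis, *Fnta*, the shared subunit of protein prenyltransferases, had a vehicle peak within 10 kb, which scored 51.5, and none had a cAMP peak there, beside 19.3% and 14.0% of all genes. Within 100 kb, 7 of the 12 had a peak in each list, beside 49.4% and 41.3%, and the 7 were the same genes, beside 34.1% with a peak in both. *Ggps1*, geranylgeranyl pyrophosphate synthase, had a shared peak at 14.2 and 14.3 kb that held 2 words. Of 9 later sterol enzymes, 3 had a vehicle peak within 10 kb (*Dhcr7*, *Msmo1*, and *Sc5d*) and 2 a cAMP peak (*Msmo1* and *Sc5d*), next to 2 and 3 of the 9 members and the same 19.3% and 14.0%. The relatives *Acat1*, the mitochondrial acetyl-CoA acetyltransferase, and *Idi2* had none within 100 kb in either list.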

How the data were processed

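Ad4BP/SF-1 ChIP-seq of mouse Leydig cells was deposited as 1 list of peaks for vehicle and 1 for cAMP, each from 1 library. By the study's methods, the authors mapped reads to mm10 with Bowtie, discarded those that mapped to several places, and used MACS to find peaks. The submitters' processing notes name Bowtie 0.12.8 and FastQC 0.11.5. Whether the input served as control is not given in the sources used here. The deposited score is the one MACS gave the authors for each peak, the p-value on the negative log10 scale multiplied by 10.

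Gaps, overlaps and words were computed with Python 3.11.15, numpy 2.4.6, pandas 2.3.3 and pysam 0.24.0 from GENCODE M21 and mm10, indexed with samtools 1.23.1. The functions were tested on simulated data, and bedtools 2.31.1 gave the same gaps for 9 of 9 members in each list. Intervals came from scipy 1.17.1 and plots from matplotlib 3.10.9. RefSeq promoter entries were matched for 6 members. Exons and introns are numbered along the transcript that GENCODE marks as principal. Coordinates count from 1.

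The members, lists and words were chosen with earlier results of these data known. Genes named are the members, the genes whose start site is nearest to a member peak, those that overlap a close peak, and, by count, the neighbouring lists. Genes between a peak and a member, *Gm36617*, and the values of *Ggps1*, *Fnta* and *Idi2* were named after they had been seen. A few of the genes so chosen are not reported here. Windows, score minimums, start sites, overlap rules and word definitions were varied.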

Additional observations from a re-analysis of the deposited data

How the results depend on the processing

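With 1 library per condition no library was left out in turn, and depth is unknown. No paired analysis was possible because no result comes from a test. Counts that moved by over 1.5 times and shares that left the interval of the reported value are given, with a few others.

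Members with a peak within 10 kb numbered 2 in vehicle, 3 in cAMP, 2 in both lists and 3 in either. In the gene body or with 5 kb, the vehicle count and that in both lists were 1, beside 16.4% and 8.33% of all genes at 5 kb. With 50 kb, 4 had a vehicle peak, beside 36.7% of all genes, and 5 one in either list, beside 43.1%. With 100 kb the counts were 5, 5, 4 and 6. With scores of at least 100, vehicle and both lists gave 1, beside 6.63% and 2.8% of all genes. The cAMP count and that in either list were 2 with scores of at least 75 or 100, since *Mvd* was lost, beside 6.72% and 12.6% of all genes at 75 and 4.01% and 7.83% at 100. Within 100 kb, 5 members had a peak in each list. Scores of at least 75 left 3 in cAMP, beside 22.1% of all genes. Scores of at least 100 left 3 in each, beside 22.1% in vehicle and 14.3% in cAMP, and peaks with no other start site nearer left 3 in each. The 14 vehicle and 8 cAMP peaks became 9 and 5 at a score of at least 75, where 46.6% and 40.3% of all peaks were left. They became 5 and 5 at 100, where 26.6% and 23.0% were left. With no other start site nearer they became 3 and 3, and no share over all genes or peaks was computed for that setting. The cAMP share with a counterpart went from 87.5% to 100% at a score of at least 75 and to 60% at 100, beside 61.4% and 63.3% of all cAMP peaks. The vehicle share went from 57.1% to 80% at 100, beside 38.6%. Under these score minimums each member share rests on 5 peaks. The cAMP share with a consensus went from 75% to 100% at a score of at least 100, beside 92.0%, and to 50% in the central 200 bp, beside 70.6%. At equal list lengths, a setting chosen after the data had been seen, the place of the shared *Fdps* peak at the edge of the window went from -3.98 to 3.73 points and that of the *Sqle* peak from -6.65 to 12.5, so both reversed. The other 6 shared peaks kept their direction.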
